A study of Mus musculus with 20 samples.

Results

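The genes described here are 9 markers of homeostatic microglia, the surveying state of the brain's resident macrophages: P2ry12, P2ry13, Gpr34, Cx3cr1, Siglech, Tmem119, Fcrls, Olfml3 and Sall1. They were chosen by symbol, without a rule on their values, and all 9 are among the 24062 genes of the deposited expression table. The table holds RNA-sequencing values of magnetically selected microglia from 20 male mice, each value being a read count divided by a depth factor for the mouse (a normalized count). The groups were 6 mThy1-Asyn and 4 WT mice at 7 months, and 5 mThy1-Asyn and 5 WT mice at 10 months, none given a drug. The mThy1-Asyn mice, whose genotype is labelled HEM, carry human α-synuclein under the murine Thy-1 promoter, which acts mainly in neurons. The WT mice were littermates, and both genotypes share the B6D2F1/J background, a hybrid of inbred strains. The transgene lies on the X chromosome, as does Gpr34. Each sample was the whole brain of 1 mouse, so differences between brain regions are averaged. The labels name IBA1 as the target of the beads and the study's methods name CD11b, a protein that other myeloid cells also carry. In bulk RNA, fewer cells of a type and less RNA per cell cannot be told apart.

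Microglia in the healthy brain survey their surroundings with moving processes, and the products of several of these genes serve as their sensors. The identity of the cells depends on transcription factors such as PU.1 and SALL1 and on continued signalling by TGF-beta. Many of these markers are known to fall when microglia respond to injury, plaques or inflammation, while a set of disease-associated genes rises.

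The libraries held 33404096 to 77806399 reads on genes, of which the 9 genes took 1.83% to 2.40%. Thy1, whose promoter drives the transgene, was higher in mThy1-Asyn mice by 4.51 ± 0.36 (log2 fold change ± standard error) at 7 months and by 6.37 ± 0.26 at 10 months, with no overlap of the groups (adjusted p = 0.000203 and 3.44e-09, limma). General microglia genes were abundant in all 4 groups. Csf1r, the receptor for colony-stimulating factor, averaged between 353842 and 423019 normalized counts, and Aif1, which encodes IBA1, between 13802 and 15677. RNA of other cells was present too: 12 neuron markers summed to at most 1862 normalized counts in any mouse, whereas 7 neutrophil markers summed to between 43902 and 438524. No defining marker of the other cell types looked at was at 0 in every mouse of a group. This leaves out the neutrophil marker Ly6g, which is not among the genes of the expression table.

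The promoter sequences of the 9 genes were also looked at. The RefSeq table of promoters (GRCm38.p6) had an entry for 7 of them, but not for Gpr34 and Tmem119. The 250 bases before each start were searched for GAGGAA on either strand, the core letters of sites bound by PU.1. These letters were found for P2ry13 and Fcrls, beside 25.9% of the 27025 genes in the table. Some windows cover annotated exons: that of P2ry12 lies wholly within an exon of Med12l on the opposite strand, that of Cx3cr1 wholly within an exon of another Cx3cr1 transcript, and 136 bases of that of Fcrls within exons of Fcrls. The letters for Fcrls, 144 bases before its RefSeq start, lie inside the longer gene that the GENCODE annotation gives. Windows are shown for P2ry13, which holds the letters 48 bases before its start, and for Sall1 and Siglech, which differed between genotypes at 10 months and do not hold them. Capitals mark GAGGAA, and the Siglech window ends where its first annotated exon begins.
P2ry13 (chr3:59210883-59211132, minus strand): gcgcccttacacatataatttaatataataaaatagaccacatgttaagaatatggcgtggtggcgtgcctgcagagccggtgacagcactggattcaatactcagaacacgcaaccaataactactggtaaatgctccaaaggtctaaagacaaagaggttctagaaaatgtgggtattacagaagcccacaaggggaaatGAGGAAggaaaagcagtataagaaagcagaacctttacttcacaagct
Sall1 (the most upstream of 3 starts, chr8:89044163-89044412, minus strand): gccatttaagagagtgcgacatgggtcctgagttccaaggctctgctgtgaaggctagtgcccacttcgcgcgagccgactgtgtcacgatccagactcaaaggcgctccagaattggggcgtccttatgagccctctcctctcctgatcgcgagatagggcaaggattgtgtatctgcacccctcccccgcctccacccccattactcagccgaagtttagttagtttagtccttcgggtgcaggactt
Siglech (chr7:55767934-55768177, plus strand): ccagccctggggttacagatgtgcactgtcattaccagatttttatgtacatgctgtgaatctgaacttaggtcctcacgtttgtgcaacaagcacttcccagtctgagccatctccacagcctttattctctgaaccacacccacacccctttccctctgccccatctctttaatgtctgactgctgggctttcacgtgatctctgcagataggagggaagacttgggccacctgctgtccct
CAGACA on either strand, letters of elements bound by SMAD proteins, was found for Siglech and Fcrls, beside 19.3% of the genes in the table. No binding was measured in these samples.

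Levels of different genes were compared per kilobase of annotated exon. P2ry12 was the highest of the 9 in every group, with 117350 ± 9348 normalized counts per kilobase (mean ± SD) in the 4 WT mice at 7 months. In the same mice Cx3cr1 followed with 61714 ± 4942 and Gpr34 with 35302 ± 1819, and no mouse crossed between these neighbours. P2ry13, Fcrls, Tmem119 and Siglech came next, at 28504 ± 2409, 25772 ± 4830, 24854 ± 3864 and 24776 ± 1390, and each overlapped the next in that order. Olfml3 at 13986 ± 1270 and Sall1 at 6852 ± 711 were the lowest in all 4 groups, and Sall1 did not overlap Olfml3 in any of them. P2ry12, Cx3cr1 and Gpr34 were the first 3 in all 4 groups, although Gpr34 overlapped Tmem119, the gene next to it, in WT mice at 10 months.

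**Figure D1:**
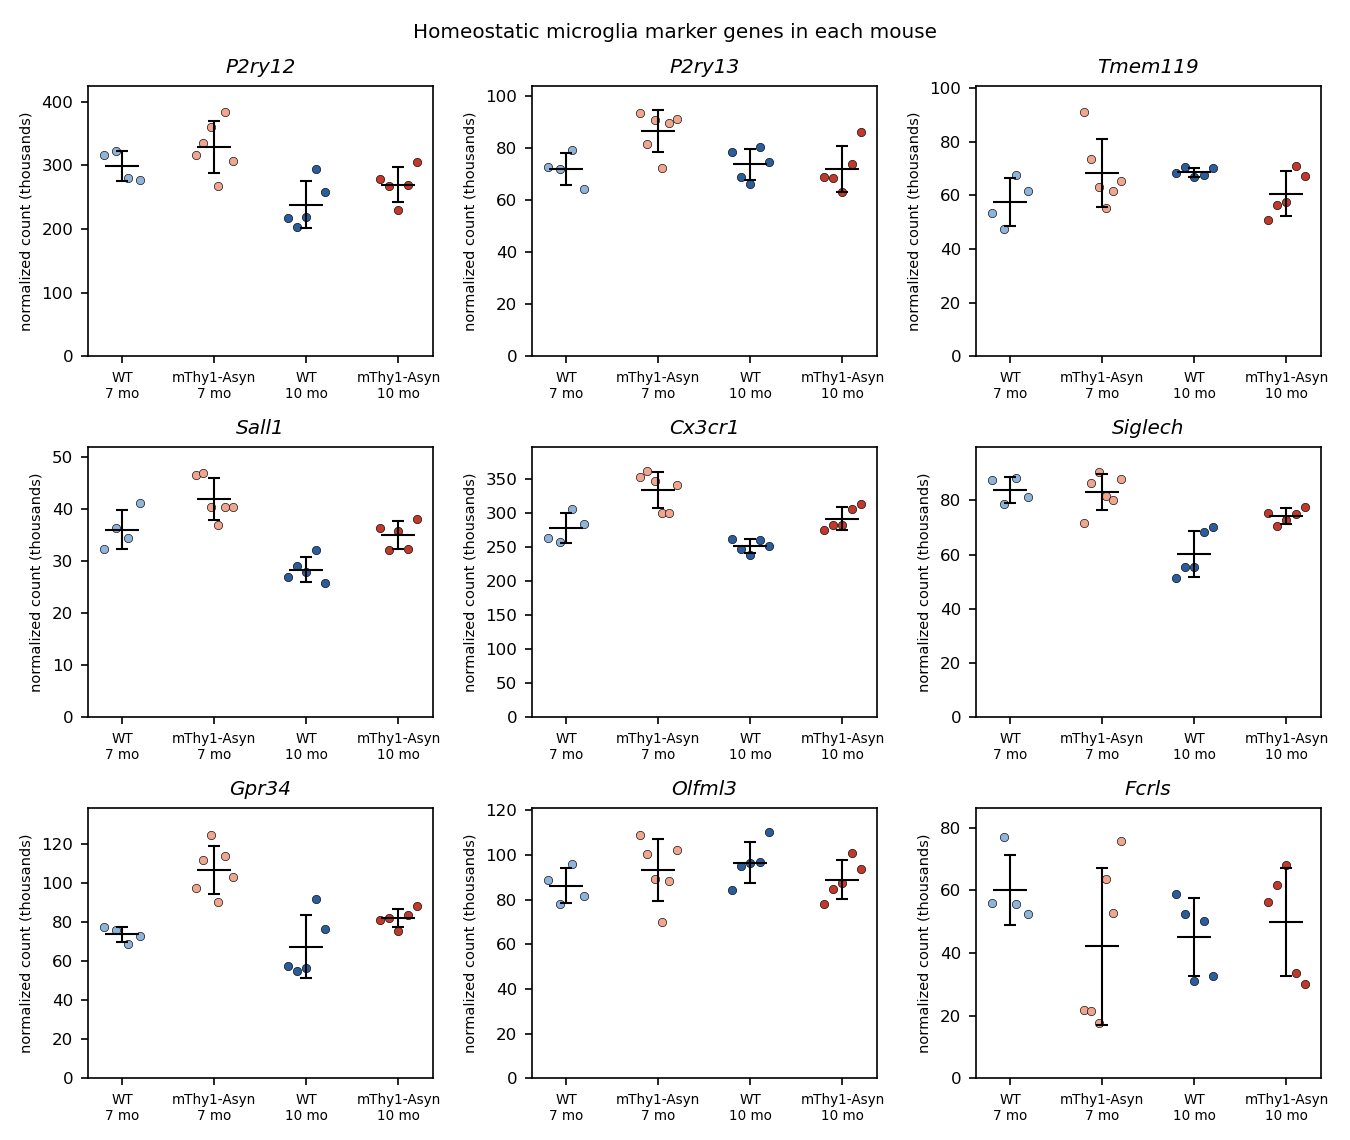
Normalized counts (linear axes from 0) of the 9 genes in each of the 20 mice by group, with points for mice, horizontal bars for group means and whiskers for SDs. Gpr34 at 7 months and Cx3cr1 and Siglech at 10 months do not overlap between genotypes, and Fcrls has no value between 33546 and 50223.

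The main question was whether the genes differ between mThy1-Asyn and WT microglia at each age. At 7 months 1 of the 9, Gpr34, passed the test and was higher in mThy1-Asyn mice, beside 4.93% of all 13887 genes tested (2.23% higher). At 10 months 3 of the 9, Sall1, Cx3cr1 and Siglech, passed and were higher, beside 7.67% of 13627 genes (3.88% higher). None of the 9 was lower by the test at either age. The log2 fold change was above 0 for 7 of 9 genes at 7 months and 6 of 9 at 10 months, beside 50.1% and 49.5% of all genes, with medians of 0.22 and 0.19 beside 0.0009 and -0.0026. The mThy1-Asyn mice lay wholly above the WT mice for 1 gene at 7 months and 2 at 10 months, beside 3.55% and 3.78% of all genes. An unadjusted p under 0.05 was found for 4 and 5 of the 9, beside 21.3% and 23.5%. Tmem119 was among these at 10 months, and it was lower in mThy1-Asyn mice. Fold changes are on the log2(normalized count + 1) scale, and adjusted p-values are limma's over all genes tested.

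**Figure D2:**
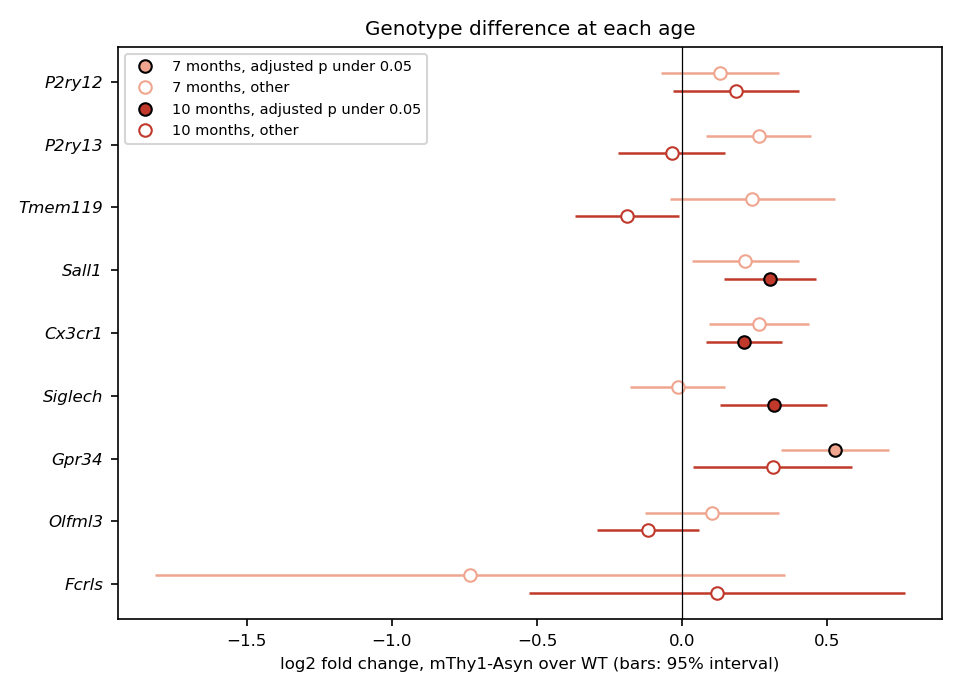
Log2 fold change of mThy1-Asyn over WT mice for each of the 9 genes at 7 months (pale) and 10 months (dark), with bars for the 95% interval and filled points for an adjusted p under 0.05. Gpr34 lies furthest above 0 at 7 months (0.53), and the interval of Fcrls is the widest at both ages.

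Gpr34 encodes a receptor for lysophosphatidylserine, a lipid released by damaged or dying cells. At 7 months the 6 mThy1-Asyn mice had a lowest value of 90285, a median of 107209 and a highest of 124362 normalized counts. The 4 WT mice had 77452, 76031, 68908 and 72733. Every mThy1-Asyn mouse lay above every WT mouse, and the difference of 0.53 ± 0.09 on the log2 scale, or 1.44-fold, passed the test (95% interval 0.34 to 0.71, adjusted p = 0.00334). At 10 months the mThy1-Asyn mice had 80966, 81847, 75414, 83707 and 87958, and the WT mice had 57454, 54928, 56393, 91644 and 76426. The 3 lowest values were all WT, but 1 WT mouse, replicate 4, was the highest of the 10, and the difference of 0.31 ± 0.13 did not pass (95% interval 0.04 to 0.59, adjusted p = 0.154). Without that mouse the difference was 0.43 and passed (adjusted p = 0.0128), whereas with the summed neutrophil markers as a covariate it was 0.11 (adjusted p = 0.831), the lowest of 23 alternatives. The change of the genotype difference between ages was -0.21 ± 0.16 and did not pass either (adjusted p = 0.469).

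P2ry12 encodes the ADP receptor that guides microglial processes to sites of injury, and P2ry13, which lies beside it on chromosome 3, encodes a second receptor for ADP. P2ry12 at 7 months ranged from 268391 through a median of 325859 to 384337 in mThy1-Asyn mice, and was 316002, 322467, 279724 and 276902 in WT mice. In the older mice P2ry12 was 279104, 267412, 229383, 268986 and 305103 in mThy1-Asyn mice and 216702, 203983, 219277, 294902 and 258389 in WT mice. The groups overlapped at both ages, and the differences of 0.13 ± 0.10 and 0.19 ± 0.10 did not pass (adjusted p = 0.458 and 0.292, limma). The 95% interval at 7 months was -0.07 to 0.33, and at 10 months -0.03 to 0.40.

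P2ry13 at 7 months ranged from 72436 through 90321 to 93546 in mThy1-Asyn mice, and was 72844, 71840, 79208 and 64343 in WT mice. In 5 of 6 mThy1-Asyn mice it was above every WT mouse, and the difference of 0.26 ± 0.09 did not pass (adjusted p = 0.0876). It passed in 2 of 23 alternatives, with DESeq2 (adjusted p = 0.0369) and without mThy1-Asyn replicate 4 (adjusted p = 0.0251). P2ry13 at 10 months was 68753, 68686, 63049, 73938 and 86240 in mThy1-Asyn mice and 78365, 69057, 66102, 80547 and 74836 in WT mice. These groups overlapped throughout, with a difference of -0.04 ± 0.09 (adjusted p = 0.838).

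The positions bear on how these reads were assigned. P2ry12 (GRCm38, chr3:59216272-59262871, minus strand) and P2ry13 (chr3:59207892-59210882, minus strand) both lie within Med12l, on the opposite strand. P2ry12 shares 9 exon bases with it, 0.353% of its exon length, and P2ry13 shares none. Whether counting used strand is not given in the sources used here. Med12l itself differed by 0.17 ± 0.09 and 0.13 ± 0.12 and did not pass (adjusted p = 0.276 and 0.558). P2ry14, a related receptor gene for UDP-sugars, differed by 0.16 ± 0.36 and 0.36 ± 0.30 (adjusted p = 0.835 and 0.509).

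Cx3cr1 encodes the receptor for fractalkine, a chemokine displayed by neurons. At 7 months it ranged from 300534 through 344562 to 361547 in mThy1-Asyn mice, and was 262973, 257893, 306485 and 284737 in WT mice. In 4 of 6 mThy1-Asyn mice it was above every WT mouse, and the difference of 0.26 ± 0.08 did not pass (95% interval 0.09 to 0.44, adjusted p = 0.0732). It passed in 5 of 23 alternatives, with DESeq2 (adjusted p = 0.0210), array weights, scaling to other microglia genes, and without mThy1-Asyn replicate 4 or 5. Cx3cr1 at 10 months was 275177, 282176, 282898, 306598 and 313101 in mThy1-Asyn mice and 261918, 247487, 237814, 259887 and 251797 in WT mice. The groups did not overlap, and the difference of 0.21 ± 0.06, or 1.16-fold, passed (adjusted p = 0.0473). It was close to the threshold: leaving out any 1 of the 10 mice gave 0.19 to 0.23 with adjusted p from 0.0509 to 0.115.

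Siglech encodes a sialic acid-binding lectin that marks microglia among brain macrophages. At 7 months it ranged from 71741 through 84059 to 90338 in mThy1-Asyn mice, and was 87322, 78624, 88246 and 81079 in WT mice. These groups overlapped, with a difference of -0.02 ± 0.08 (95% interval -0.18 to 0.15, adjusted p = 0.932). Siglech at 10 months was 75402, 70370, 72676, 75061 and 77620 in mThy1-Asyn mice and 51350, 55441, 55361, 68337 and 70057 in WT mice. The highest WT mouse lay just under the lowest mThy1-Asyn mouse, and the difference of 0.31 ± 0.09, or 1.24-fold, passed (adjusted p = 0.0398). Leaving out 1 mouse at a time, 8 of 10 fits lost the call, with 0.26 to 0.37 and adjusted p from 0.0187 to 0.0974. The change of the difference from 7 to 10 months was 0.33 ± 0.12, with an unadjusted p of 0.0089 (limma) and an adjusted p of 0.0886, and it passed without WT replicate 5 at 10 months (0.39, adjusted p = 0.0355).

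Sall1 encodes a zinc-finger transcription factor that maintains microglial identity. At 7 months it ranged from 36946 through 40431 to 47022 in mThy1-Asyn mice, and was 32394, 36434, 34355 and 41114 in WT mice. All 6 mThy1-Asyn mice lay above the WT mean, but only 2 above every WT mouse, and the difference of 0.22 ± 0.09 did not pass (adjusted p = 0.158). Sall1 at 10 months was 36460, 32091, 35864, 32297 and 38173 in mThy1-Asyn mice and 26956, 29018, 27880, 32169 and 25812 in WT mice. In 4 of 5 mThy1-Asyn mice it was above every WT mouse, and the difference of 0.30 ± 0.07, or 1.23-fold, passed (95% interval 0.14 to 0.46, adjusted p = 0.0266). Leaving out 1 mouse at a time, 7 of 10 fits lost the call, with 0.27 to 0.35 and adjusted p from 0.00976 to 0.0672.

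Tmem119 encodes a transmembrane protein used to tell microglia from other macrophages, and Olfml3 encodes a secreted matrix glycoprotein. Tmem119 at 7 months ranged from 55243 through 64146 to 91098 in mThy1-Asyn mice, and was 53493, 47315, 67625 and 61714 in WT mice. At 10 months it was 50623, 56436, 57633, 71118 and 67326 in mThy1-Asyn mice and 68271, 70605, 66738, 67458 and 70019 in WT mice. The WT mice at 10 months were tightly grouped. The mThy1-Asyn mice with 50623, 56436 and 57633 lay below every WT mouse, and the mouse with 71118 lay above them. The differences of 0.24 ± 0.13 and -0.19 ± 0.08 did not pass (adjusted p = 0.315 and 0.189, limma). Their change between ages was -0.43 ± 0.16 (unadjusted p = 0.0144, adjusted p = 0.116, limma).

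Olfml3 at 7 months ranged from 70164 through 94913 to 108793 in mThy1-Asyn mice, and was 88947, 78274, 95819 and 81642 in WT mice. At 10 months it was 78280, 84592, 87294, 101082 and 93867 in mThy1-Asyn mice and 84259, 95229, 96327, 96773 and 110098 in WT mice. Groups overlapped at both ages, with differences of 0.10 ± 0.11 and -0.12 ± 0.08 (adjusted p = 0.619 and 0.422).

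Fcrls encodes an Fc receptor-like scavenger protein found in mouse microglia. At 7 months it was 21725, 21491, 17800, 63493, 52867 and 75629 in mThy1-Asyn mice and 55853, 76894, 55520 and 52340 in WT mice. At 10 months it was 56319, 61758, 68019, 33546 and 29961 in mThy1-Asyn mice and 58752, 52300, 31174, 50223 and 32728 in WT mice. No mouse had a value between 33546 and 50223, so that 7 mice lay below this gap and 13 above it. The lower mice were 3 of 6, 0 of 4, 2 of 5 and 2 of 5 in mThy1-Asyn and WT at 7 months and mThy1-Asyn and WT at 10 months. The genotype differences of -0.73 ± 0.47 and 0.12 ± 0.29 did not pass (adjusted p = 0.419 and 0.847, limma), and the 95% interval at 7 months ran from -1.81 to 0.35. The 3 lower mThy1-Asyn mice at 7 months, replicates 1 to 3, also had lower summed markers of other leukocytes than the 7 remaining mice of that age. Their neutrophil markers summed to between 43902 and 74295, beside 245353 to 438524 in mThy1-Asyn replicates 4 to 6 and 75144 to 283932 in WT mice. Their monocyte sums were 12220 to 13040, beside 15900 or more in the other mice, and their lymphocyte sums 159 to 205, beside 353 or more. At 10 months the 4 lower mice had neutrophil sums on both sides, of 72347 and 196691 in mThy1-Asyn mice and 388573 and 294153 in WT mice. The part of these cells in the Fcrls values was not tested.

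The genes whose values were most like those of Fcrls after removal of group means were often its neighbours. Of the 20 most alike among 10885 genes, 10 lay within 10 Mb of Fcrls (chr3:87250758-87263738, minus strand), a window that holds 1.41% of these genes. Among the 20 most alike of each other marker, at most 1 lay within 10 Mb. The nearest of the 10 was Fcrl1, 0.126 Mb away, a gene of the same Fc receptor-like family. Because Fcrls falls into separate ranges, r was taken within each range only: for Fcrl1 it was 0.905 in the 7 lower mice and 0.779 in the 13 upper mice. For Dclk2, a kinase gene 0.465 Mb away on the other side, it was -0.624 and -0.632. For 5830417I10Rik, 1.52 Mb away, it was -0.423 and 0.711, so that its sign differed between the ranges. It was -0.236 and -0.614 for Cd1d1, 0.255 Mb away, and -0.895 and 0.653 for Gon4l, 1.58 Mb away, whose sign also differed. The order of likeness itself was taken over all 20 mice and so rests in part on the separate ranges. These 5 neighbours were chosen after their values were seen, so no test is given, and the strain origin of this region in each mouse was not analysed here.

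**Figure D3:**
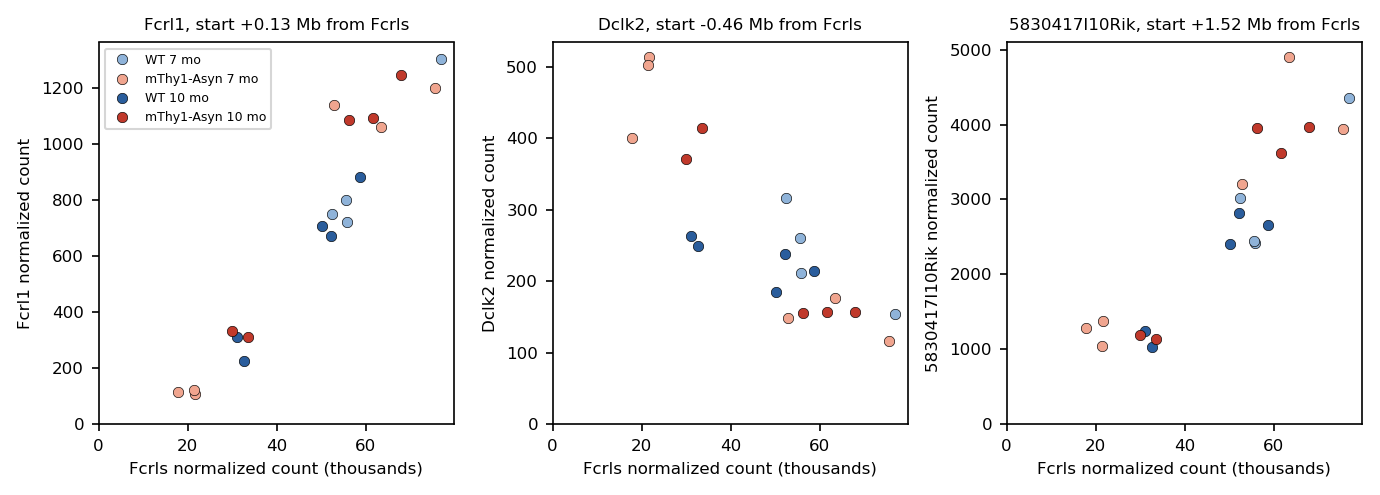
Normalized counts of 3 genes near Fcrls (y axes, from 0) against Fcrls (x axes, from 0) in the 20 mice, coloured by group. The 7 mice with at most 33546 Fcrls counts include mice of 3 of the groups, and in them Fcrl1 is at most 332 normalized counts.

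The second question was whether the genotype difference itself changed between ages. No marker passed the test of this interaction with limma, edgeR or DESeq2, beside 6.36% of 14457 genes with limma. At an unadjusted p under 0.05 there were 3 of 9 with limma, beside 21.9% of all genes: P2ry13, Tmem119 and Siglech. The first of these changed by -0.30 ± 0.12 (adjusted p = 0.149), and the others are given above.

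Age was compared within each genotype, with depth factors computed over all 20 mice. Cells of the 7-month and 10-month mice were prepared separately, so age and preparation cannot be told apart. In WT mice Siglech was lower at 10 months, by -0.39 ± 0.09 (adjusted p = 0.00649, limma), 1 of 9 markers beside 9.97% of 14452 genes (5.45% lower). An unadjusted p under 0.05 was found for 5 of 9, beside 25.1% of genes. Tmem119 and Olfml3 were higher by estimate at 0.37 ± 0.12 and 0.26 ± 0.11 and did not pass (adjusted p = 0.0546 and 0.114). Sall1 at -0.24 ± 0.09 and P2ry12 at -0.23 ± 0.11 did not pass either (adjusted p = 0.0716 and 0.180). In mThy1-Asyn mice no marker passed with limma, beside 0.906% of genes, and 1 of 9, Gpr34, had an unadjusted p under 0.05 (12.7% of genes), at -0.27 ± 0.11 (adjusted p = 0.273). With the depth factors as deposited, computed per age, 3 markers passed in WT and 2 in mThy1-Asyn mice.

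The 9 markers did not vary as 1 block among mice of the same group. Pearson's r was computed over the 20 mice after removal of group means for all 36 pairs, with 100000 permutations within groups and two-sided p-values adjusted over the 36. P2ry12 and Gpr34 were the most alike, with r = 0.891 (permutation p = 2e-05, adjusted p = 0.00072) and rho = 0.934 (permutation p = 1e-05, adjusted p = 0.00036). Within ages r was 0.874 at 7 months and 0.922 at 10 months, and without the 2 mice farthest from the median of P2ry12 it was 0.847. These genes lie on chromosomes 3 and X.

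Tmem119 formed another pair with Cx3cr1, with r = 0.791 (permutation p = 0.00114, adjusted p = 0.0137) and rho = 0.836 (permutation p = 0.00043, adjusted p = 0.00774). Within ages r was 0.795 and 0.779, and 0.792 without the 2 farthest mice, but without mThy1-Asyn replicate 4 at 7 months r was 0.750 and did not pass (permutation test, adjusted p = 0.0644). Tmem119 and Olfml3 had r = 0.772 (permutation p = 0.0008, adjusted p = 0.0137) and rho = 0.717 (permutation p = 0.00137, adjusted p = 0.0164). Within ages r was 0.790 and 0.739, and 0.714 without the 2 farthest mice. No other pair passed. P2ry12 and Tmem119 were nearly unrelated, with r = -0.0426 (permutation p = 0.864, adjusted p = 0.864) and rho = -0.0917 (permutation p = 0.698, adjusted p = 0.848). Pairs with Fcrls did not pass, and no r over all mice is given for them because of its separate ranges.

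**Figure D4:**
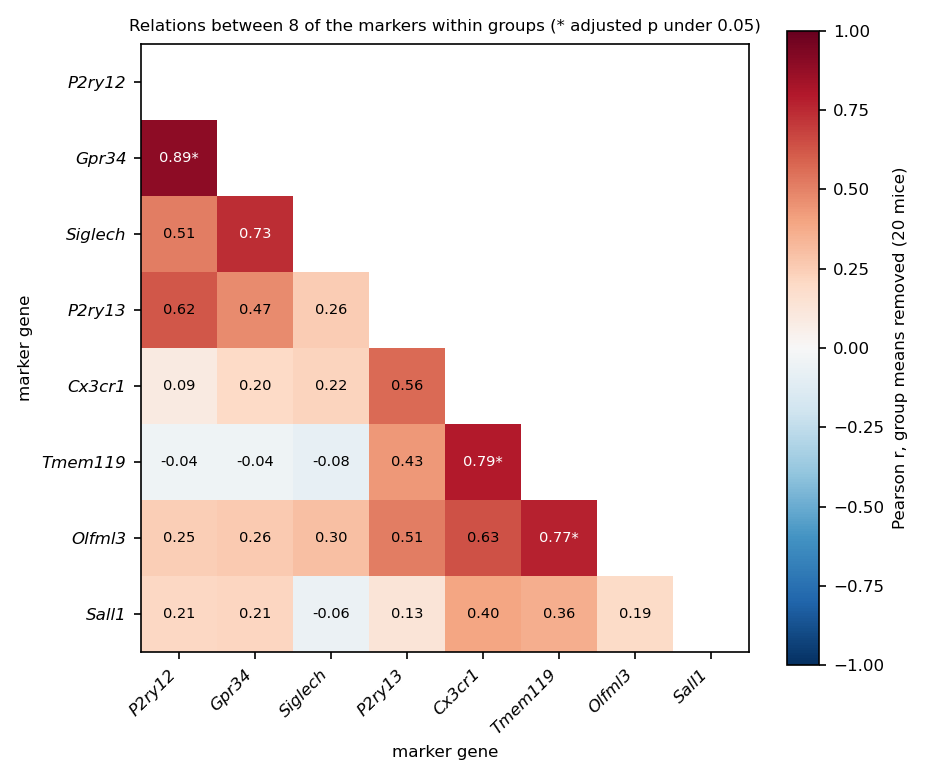
Pearson's r over 20 mice, with group means removed, for each pair of 8 of the markers, where colour and printed number both give r and a star marks an adjusted p under 0.05. The starred pairs are P2ry12 with Gpr34 (0.89), and Tmem119 with Cx3cr1 (0.79) and with Olfml3 (0.77).

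Properties of the libraries moved with some of these values. The GC slope is the trend of a mouse's log2 values, against the mean of both genotypes at its age, per 10 points of transcript GC content. It was fitted over 10202 genes and ranged from -0.14 to 0.176. It was related to Tmem119, the most GC-rich of the 9 transcripts at 59.0%, with r = 0.723 (permutation p = 0.00044, adjusted p = 0.00792 over 18 relations) and rho = 0.693 (permutation p = 0.00094, adjusted p = 0.0169). Within ages r was 0.784 and 0.688, and 0.642 without the 2 mice of most extreme slope. For Olfml3, at 52.4% GC, r was 0.634 (permutation p = 0.00301, adjusted p = 0.0271) and rho was 0.630 (permutation p = 0.00615, adjusted p = 0.0553). Within ages r was 0.645 and 0.642, and 0.566 without the 2 extreme mice. Gpr34 and P2ry12 have the lowest GC content of the 9, at 37.1% and 38.6%, and their relations to the slope did not pass. Their r was -0.424 (permutation p = 0.059, adjusted p = 0.160) and -0.449 (permutation p = 0.0555, adjusted p = 0.160). Within ages r was -0.522 and -0.389 for Gpr34, and -0.475 and -0.429 for P2ry12. Cx3cr1, at 50.3% GC, did not pass either, with r = 0.484 (permutation p = 0.0479, adjusted p = 0.160), and 0.736 and 0.114 within ages. Removal of the GC trend left Gpr34 at 0.41 at 7 months, still past the threshold. The part of the slope in the pairs above was not tested.

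The summed neutrophil markers were not related to any marker past the threshold. Fcrls was left to the description of its separate ranges above, and among the other 8 markers the strongest relation was that of Cx3cr1. Its r was -0.576 (permutation p = 0.0417, adjusted p = 0.160) and rho was -0.571 (permutation p = 0.0386, adjusted p = 0.175), with r of -0.662 and -0.290 within ages and -0.587 without the 2 farthest mice.

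**Figure D5:**
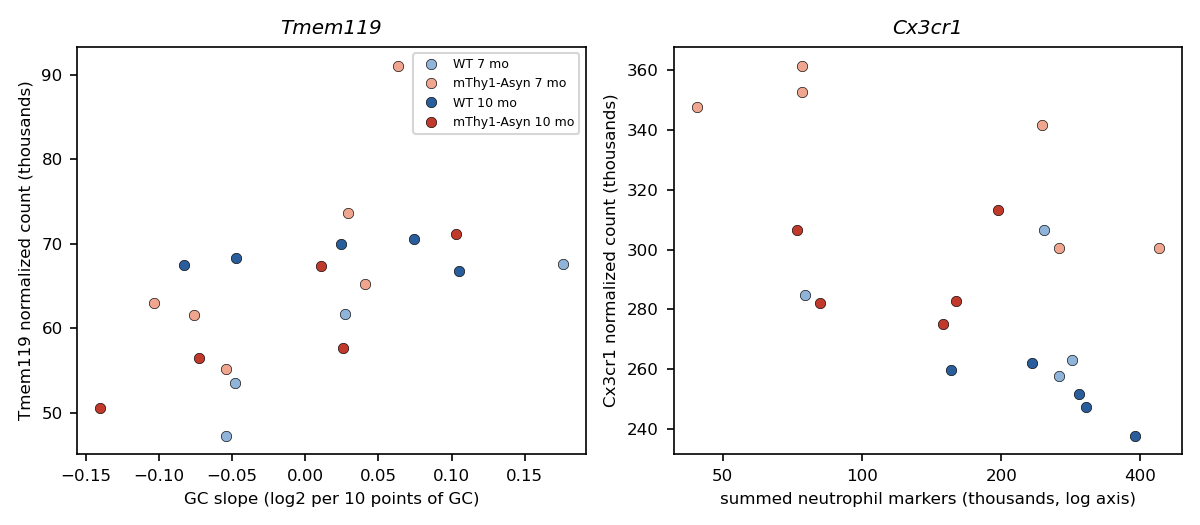
Left, Tmem119 (normalized counts) against the GC slope (log2 per 10 points of GC); right, Cx3cr1 against the summed neutrophil markers (both in normalized counts, the latter on a log axis), 1 point per mouse coloured by group. Tmem119 is higher in mice with a higher slope (r = 0.723), and the relation of Cx3cr1 to neutrophil markers did not pass (r = -0.576).

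Markers of other myeloid cells moved with genotype at 10 months, the age of the Sall1, Cx3cr1 and Siglech calls. At this age 7.67% of all genes passed with limma. Border macrophage markers, those of macrophages of the meninges and vessels, were below 0 in log2 fold change for 10 of 10 genes, 5 of them lower by the test (Mrc1, Pf4, F13a1, Cbr2 and Cd209f), and their sums ranged from 20273 to 26062 in mThy1-Asyn and 27301 to 37804 in WT mice. Monocyte markers were below 0 for 7 of 7, 4 of them lower by the test (Plac8, Chil3 and Fn1 among them), with sums of 15881 to 27597 and 29053 to 56598. Neutrophil markers were below 0 for 7 of 7, 1 of them, Retnlg, lower by the test, with sums of 72347 to 196691 and 155818 to 388573. Of 5 lymphocyte markers tested 3 were lower (Cd3d, Nkg7 and Gzmb), as was 1 of 9 neuron markers (Camk2a), while 1 of 10 astrocyte markers was higher (Aldh1l1). The border macrophage and monocyte sums did not overlap between genotypes, and the neutrophil sums did. With the neutrophil sum as a covariate no marker passed at 10 months with limma: Sall1 was at 0.36 (adjusted p = 0.188), Cx3cr1 at 0.17 (adjusted p = 0.452) and Siglech at 0.28 (adjusted p = 0.375), and 46 genes passed in all. Itgam, which encodes CD11b, was higher by 0.22 ± 0.06 in mThy1-Asyn mice at this age (adjusted p = 0.0408). The part of these cells in the calls was not tested further.

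At 7 months, the age of the Gpr34 call, none of the border macrophage, monocyte or neutrophil markers passed with limma or edgeR, and their sums overlapped. Their log2 fold changes were below 0 for 5 of 10, 7 of 7 and 7 of 7 markers, with medians of -0.03, -0.42 and -0.44. DESeq2 called 1 border macrophage marker, and 1, 0 and 0 markers of these lists had an unadjusted p under 0.05 with limma. Of all genes 4.93% passed at this age and 21.3% had an unadjusted p under 0.05 (limma). Oligodendrocyte markers summed to 7882 to 10249 in mThy1-Asyn and 12813 to 18304 in WT mice, without overlap, and 3 of 9 were lower by the test (Mbp and Mobp among them). Neuron markers summed to 614 to 878 and 1248 to 1862, also without overlap, with 5 of 11 lower (Syt1, Rbfox3, Nefl, Nefm and Slc17a7). Of 10 astrocyte markers 5 were lower (Gja1, Gjb6, Aldoc, S100b and Slc4a4) and 1 higher (Slc1a3). The astrocyte sums overlapped, at 9801 to 12559 in mThy1-Asyn and 9534 to 12576 in WT mice. Endothelial markers summed to 3851 to 5639 in mThy1-Asyn and 6075 to 7375 in WT mice, without overlap. Of these 10 markers 2 were lower (Cldn5 and Pecam1), 8 had an unadjusted p under 0.05, and DESeq2 called 4. Of 6 lymphocyte markers 1 was lower by the test (Gzmb), and all 6 were below 0, with a median of -0.93. Their part in the Gpr34 value was not tested.

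Other homeostatic genes were mostly not past the threshold. Of 20 such genes 3 were higher at 7 months, among them Entpd1, an ectonucleotidase that breaks down ATP and ADP, by 0.46 ± 0.08 (adjusted p = 0.00371), and Mertk, a receptor for the uptake of dying cells, by 0.35 ± 0.08 (adjusted p = 0.0220). At 10 months 1 of the 20, Itgam, was higher. Their medians were 0.06 and 0.05. With limma none was lower at either age, although 7 and 4 of the 20 had an unadjusted p under 0.05. The other tools gave lower calls: edgeR called 3 higher at 7 months and 1 higher and 1 lower at 10 months, and DESeq2 called 4 higher and 1 lower, then 1 higher and 1 lower. The gene lower at 10 months was Entpd1 in both, at -0.26 with each (adjusted p = 0.04996 with edgeR and 0.0153 with DESeq2), where limma gave an adjusted p of 0.0517. The gene lower at 7 months with DESeq2 was Cst3, a protease inhibitor gene, at -0.31 (adjusted p = 0.0491). With limma 4.93% and 7.67% of all genes passed at 7 and 10 months, and 21.3% and 23.5% had an unadjusted p under 0.05. These shares also stand beside the counts of the lists that follow.

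Of 13 transcription factors of microglial identity, 0 passed at 7 months with limma. At an unadjusted p under 0.05 there were 7, beside 21.3% of all genes, and 0 passed with edgeR and 3 with DESeq2. At 10 months 2 were higher, Mef2a by 0.40 ± 0.09 (adjusted p = 0.0140) and Mef2c by 0.30 ± 0.07 (adjusted p = 0.0202), both of the MEF2 family that acts at microglial enhancers. Spi1, which encodes PU.1, differed by -0.11 ± 0.09 and -0.15 ± 0.08 and did not pass (adjusted p = 0.511 and 0.314).

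Of 20 genes of TGF-beta signalling 1 was higher at 7 months, Smad7, an inhibitor of the pathway, by 0.29 ± 0.08 (adjusted p = 0.0449). This 1 of 20 stood beside 4.93% of all genes and was near that share. An unadjusted p under 0.05 was found for 10 of the 20 with limma, beside 21.3% of all genes. At this age edgeR called 1 higher and DESeq2 called 4 higher, and neither called any lower. By estimate 14 were above 0 and 6 below, with a median of 0.20. At 10 months 2 were higher and 3 lower, beside 7.67% of all genes past the threshold. Furin, a protease that processes the TGF-beta precursor, was higher by 0.54 ± 0.09 (adjusted p = 0.00489), and Ltbp3, which binds latent TGF-beta, by 0.68 ± 0.19 (adjusted p = 0.0430). Nrros, which holds latent TGF-beta on microglia, was at -0.43 ± 0.09 (adjusted p = 0.01). Thbs1, an activator of latent TGF-beta, was at -1.24 ± 0.20 (adjusted p = 0.00756), and Lrrc32, which anchors it on other cells, at -1.17 ± 0.30 (adjusted p = 0.0294).

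Of 17 purinergic genes 3 were higher at 7 months: Entpd1, Adora3, a receptor for adenosine, by 0.48 ± 0.09 (adjusted p = 0.00475) and P2rx4, an ATP-gated channel, by 0.43 ± 0.11 (adjusted p = 0.0333). At 10 months Pik3cg, a kinase downstream of P2RY12, was higher by 0.33 ± 0.09 (adjusted p = 0.0406). P2rx4 was then lower, at -0.31 ± 0.09 (adjusted p = 0.0434), as was Panx1, a channel that releases ATP, at -0.58 ± 0.16 (adjusted p = 0.0427). The medians were 0.15 and -0.19.

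Among 12 genes for ligands, adaptors and enzymes tied to the markers, 9 were tested at 7 months and 11 at 10 months. Adam17, a protease that can shed fractalkine, was the only one past the threshold with limma, higher by 0.31 ± 0.07 at 7 months (adjusted p = 0.0148). Of 20 disease-associated microglia genes 0 passed at 7 months with limma, 1 with edgeR and 2 with DESeq2. An unadjusted p under 0.05 was found for 4, and 17 were above 0 with a median of 0.31. At 10 months 1 passed, Itgax, which encodes CD11c, higher by 0.31 ± 0.09 (adjusted p = 0.0432), with a median of 0.02. Of 15 immediate-early genes, which respond to cell isolation, 0 passed at 7 months with limma, edgeR or DESeq2. At an unadjusted p under 0.05 there were 4 with limma, beside 21.3% of all genes. With limma 1, Fosb, passed at 10 months, at -0.67 ± 0.18 (adjusted p = 0.0474), as it did with edgeR, and DESeq2 called 4 lower (Fos, Fosb, Dusp1 and Nr4a1). At that age 13 of the 15 were below 0, with a median of -0.23, and 8 had an unadjusted p under 0.05 with limma, all of them lower in mThy1-Asyn mice: these 4 and Ier2, Btg2, Hspa1a and Hspa1b. The summed values overlapped, at 76502 to 96996 in mThy1-Asyn and 76322 to 117542 in WT mice. Their part in the calls of Sall1, Cx3cr1 and Siglech at the same age was not tested.

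Genes near the markers were looked at to see whether differences were shared along the chromosome. Within 1 Mb of the 9 markers, the only gene past the threshold at both ages was Xylb, a xylulokinase gene 0.544 Mb from Cx3cr1, higher in mThy1-Asyn mice by 0.60 ± 0.13 (adjusted p = 0.0174) and 0.81 ± 0.13 (adjusted p = 0.00280). Near Cx3cr1 3 of 25 genes passed at 7 months (Xylb, Mobp and Rpl14) and 5 at 10 months (Xylb, Vill, Myd88, Scn11a and Csrnp1), beside 4.93% and 7.67% of all genes. Near Siglech 2 of 7 genes (Tubgcp5 and Cyfip1) and near Sall1 2 of 8 (Adcy7 and Snx20) passed, all 4 at 10 months only. Near each of the other 6 markers at most 1 gene passed at each age. Near Gpr34 (X:13632089-13640858, plus strand) 8 genes were tested at both ages, and 1, Med14, passed, at 10 months only (0.27 ± 0.07, adjusted p = 0.0346). Cask, the gene in whose intron Gpr34 lies on the opposite strand, differed by 0.19 ± 0.09 and 0.31 ± 0.10 and did not pass (adjusted p = 0.203 and 0.0642).

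The genes most like the mean of the 9 markers over the 20 mice, group means removed, were Sgce (r = 0.881), a sarcoglycan gene, Gpr183 (r = 0.848), a receptor for oxysterols, and Serinc3 (r = 0.842), a membrane protein gene, out of 10886. These values are descriptions from a ranking, with no test.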

How the data were processed

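The authors trimmed reads with Trim Galore 0.6.7, aligned them to mm10 with HISAT2 2.2.1 and counted reads per gene with featureCounts. The deposited signal is each mouse's gene count divided by its DESeq2 1.44.0 size factor, with factors computed per age. Whole reads were recovered from these values in all 20 mice (tolerance 0.01). Mice of a group differed by more than counting noise (chi-square per gene of at least 24.7), so each counted as 1 replicate.

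The log2(value + 1) was tested with limma 3.58.1 (R 4.3.3; trend and robust options, no covariates) on genes at 10 or more in at least 4 mice (7 months) or 5 mice (10 months), with Benjamini-Hochberg adjustment over all genes tested and a threshold of 0.05. Age was tested on recovered reads scaled over 20 mice. edgeR 4.0.16 and DESeq2 1.42.0 on recovered reads were alternatives, as were other scalings, filters, pseudocounts, array weights, a replicate block and leaving out each mouse. Scaling to other microglia genes, a neutrophil covariate, GC trend removal and the relations to the GC slope and neutrophil sum were added after seeing the data. The genotype tests of limma, edgeR and DESeq2 and the interaction test of limma were run on simulated data. The age tests were not. A limit on false calls was applied to limma only, after DESeq2 had exceeded it in the simulated 7-month data.

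The markers and lists were chosen with earlier results of these data known. Genes named beside them were microglia and transgene checks, genes of each list past the threshold at either age (at most 5 a list by p), P2ry14 and Med12l, neighbours called at both ages, and the 3 genes most like the markers' mean. Spi1, Cask, Med14, the Fcrls neighbours and the other cells' markers past these limits were added after their values were seen. A few list genes are not reported here by name. Positions are from GENCODE vM21.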

Additional observations from a re-analysis of the deposited data

Results flagged for a closer look

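The highest Fcrls value of the 4 WT mice at 7 months, 76894 normalized counts in replicate 2, stood apart from the other 3, which lay between 52340 and 55853. The summed oligodendrocyte markers of WT replicate 3 at 10 months, 15220, stood apart from the other 4 mice of its group, and so did the summed border macrophage markers of mThy1-Asyn replicate 2 at 10 months, 26062. These were 3 of 56 groups of values examined by Dixon's test, and chance alone sets 1 in 20 such groups apart.

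The genotype difference of several genes beside the markers changed between ages, by limma's test of the interaction, which 6.36% of 14457 genes passed. Entpd1, the ectonucleotidase that breaks down ATP and ADP, changed by -0.72 on the log2 scale (-0.7196, adjusted p = 0.000603). Among other purinergic genes P2rx4 changed by -0.7387 (adjusted p = 0.00445), Adora3 by -0.6407 (adjusted p = 0.00557) and Panx1 by -0.699 (adjusted p = 0.0471). In that list 5 of 17 genes passed, all with a negative change, and among 20 TGF-beta genes 1 was negative and 1 positive. Some markers of other cells passed with a positive change, 6 of 10 for astrocytes and 4 of 11 for neurons. For border macrophages 1 of 10 passed, with a negative change. Nrros changed by -0.7158 (adjusted p = 0.00423) and Adam17 by -0.3422 (adjusted p = 0.0243). Thy1, which marks the transgene's promoter, changed by 1.856 (adjusted p = 0.0208). Its WT means were low, at 39 normalized counts at 7 months and 17 at 10 months, and their part in this change was not tested. From 7 to 10 months Thy1 changed by -1.05 ± 0.35 in WT and 0.82 ± 0.31 in mThy1-Asyn mice. Neither change with age passed (adjusted p = 0.0585 and 0.254, limma).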

How the results depend on the processing

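Gpr34 at 7 months passed in all 23 alternatives, with differences of 0.41 to 0.57. The calls at 10 months were less stable: of 23 alternatives Cx3cr1 lost the call in 15, Sall1 in 10 and Siglech in 10. Values below 1 are log2 differences, and the cause of each change was not tested.

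With DESeq2, 1166 genes and 3 markers passed at 7 months (Gpr34, Cx3cr1 and P2ry13) and 1697 genes at 10 months. Array weights gave 2 markers at 7 months and 1 for the interaction. Scaling to other microglia genes gave 2 markers at 7 months, 515 genes and 0 markers at 10 months, and 576 genes and 1 marker for the interaction. The neutrophil covariate left 46 genes and 0 markers at 10 months. Removal of the GC trend gave 1 marker for the interaction, which was Tmem119 in these 3 fits. With the deposited scaling, age gave 2188 genes and 3 markers in WT and 830 genes and 2 markers in mThy1-Asyn mice, and scaling to total reads gave 2 markers in WT mice.

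Replicate numbers are shared between groups, but nothing in the labels pairs the mice and same-numbered mice did not deviate together (r from -0.134 to 0.1). A replicate block gave 414 genes at 7 months, 1 marker at 10 months (Siglech) and 482 genes for the interaction, and left Gpr34 called at 7 months.

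Leaving out 1 mouse at a time gave 280 to 860 genes and 1 to 3 markers at 7 months, 489 to 1232 genes and 0 to 3 markers at 10 months, 0 to 1 markers for the interaction, 960 to 1539 genes and 1 to 2 markers for age in WT mice, and 27 to 164 genes for age in mThy1-Asyn mice. At 7 months 3 markers passed without mThy1-Asyn replicate 4. At 10 months none passed without mThy1-Asyn replicate 1, 3 or 5 or WT replicate 1, 2 or 3. The interaction marker was Siglech, without WT replicate 5 at 10 months. For age in WT mice the second marker was Sall1 without WT replicate 4 at 10 months, and otherwise Tmem119, without WT replicate 3 or mThy1-Asyn replicate 1 or 4 at 7 months or mThy1-Asyn replicate 1 or 4 at 10 months. Pairs of markers past the threshold numbered 2 to 5.

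Signs turned for some differences that had not passed. Siglech at 7 months was 0.0013 with TMM scaling, 0.0048 with array weights, 0.0241 scaled to other microglia genes and -0.0461 to 0.0255 without 1 mouse. At 10 months Fcrls was -0.1089 with the neutrophil covariate and -0.0118 to 0.2839 without 1 mouse, and P2ry13 was -0.1032 to 0.0098 without 1 mouse. For the interaction, scaling to other microglia genes gave -0.0364 for P2ry12 and -0.006 for Sall1, and P2ry12 was -0.0019 to 0.1343 without 1 mouse. For age in WT mice, leaving out 1 mouse gave -0.0741 to 0.0088 for Cx3cr1 and -0.177 to 0.0063 for Gpr34. For age in mThy1-Asyn mice it gave -0.1186 to 0.028 for Tmem119 and -0.0301 to 0.095 for Olfml3, which was -0.0578 with the deposited scaling.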
